A study of Homo sapiens with 8 samples.

Results

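Annexins are proteins that bind negatively charged phospholipid membranes, most of them in a manner that needs calcium. The 10 annexin genes described here are ANXA1, ANXA2, ANXA3, ANXA4, ANXA5, ANXA6, ANXA7, ANXA9, ANXA10 and ANXA11, out of 18417 genes that had a probe set of their own on the arrays. Members were chosen by gene symbol in the platform's probe table. The family itself was selected on earlier results for the levels of these same arrays by line and day, so the tests below describe the arrays and are no independent evidence. Each gene had 1 probe set that carried its name alone. A further probe set named ANXA2 together with another gene and was left out.

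RNA came from T47D, an established human breast carcinoma line, infected with lentivirus for an inducible hairpin RNA. The EglN2 shRNA cells carried a hairpin against EGLN2, a prolyl hydroxylase that acts in oxygen sensing, and the Scr cells carried a control hairpin. Both kinds of cells were sampled at day 2, after 48 h of doxycycline at 1 ug/ml, and at day 0, without it. The 4 groups were therefore EglN2 shRNA day 2, EglN2 shRNA day 0, Scr day 2 and Scr day 0, each with 2 arrays (8 in all). Both day 2 groups share the exposure to doxycycline and neither day 0 group had it. Exposure to doxycycline and the day of sampling therefore cannot be told apart. The labels name no clone and do not state whether the 2 arrays of a group were grown as separate cultures. The p-values therefore reflect only the spread between the arrays, which could be technical.

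An annexin has a conserved core of repeats, which holds the calcium sites, and an amino-terminal region that differs between members and binds their partners. ANXA1 is induced by glucocorticoids in many cell types and acts outside the cell on formyl peptide receptors. ANXA2 forms a complex with S100A10 that binds plasminogen at the cell surface, and ANXA5 is widely used as a probe for phosphatidylserine on dying cells. In breast tissue ANXA1 is known mainly from basal and myoepithelial cells, with lower levels in luminal tumours.

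All values are RMA levels on the log2 scale, in which background correction, normalization and the summary of probes had been done by the depositors. Array medians over the 21214 probe sets with a gene name lay between 7.81 and 7.86, and the 2 arrays of a group correlated at 0.992 to 0.996. The hairpin's target, EGLN2, read 8.26 and 8.29 in EglN2 shRNA cells at day 2 and 8.85 and 9.04 at day 0, against 8.81 and 8.90 in Scr cells at day 2 and 8.97 and 9.0 at day 0. Its probe set also names a read-through transcript with RAB4B. The difference between day 2 and day 0 in EglN2 shRNA cells was -0.67 (SE 0.11, limma adjusted p = 0.134). The markers of luminal epithelium (8 of 8 measured) lay between 9.50 (ESR1) and 14.23 (KRT18) over the arrays. Of the other markers, those of fibroblasts (6 of 6 measured) lay between 3.99 and 8.89 and those of leukocytes and endothelium (6 of 7 measured) between 4.14 and 7.91. Among basal and myoepithelial markers (5 of 7 measured), KRT5, KRT14, CNN1 and MYH11 lay between 6.37 and 8.49, while ACTA2 lay between 10.8 and 13.33. In RNA from whole cultures, fewer cells that express a gene and less RNA per cell cannot be told apart.

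ANXA1 and ANXA9 were the members whose day 2 arrays lay apart from the day 0 arrays in the same direction in both lines, and their promoter windows are shown for that reason. Each window runs from 250 bases before to 50 bases after the start site that RefSeq gives on GRCh38.p14. The ANXA1 window is chr9:73151615-73151914 and the ANXA9 window chr1:150982042-150982341, both on the plus strand. Capitals mark the matches to the motifs named after the sequences, on either strand.
ANXA1 promoter: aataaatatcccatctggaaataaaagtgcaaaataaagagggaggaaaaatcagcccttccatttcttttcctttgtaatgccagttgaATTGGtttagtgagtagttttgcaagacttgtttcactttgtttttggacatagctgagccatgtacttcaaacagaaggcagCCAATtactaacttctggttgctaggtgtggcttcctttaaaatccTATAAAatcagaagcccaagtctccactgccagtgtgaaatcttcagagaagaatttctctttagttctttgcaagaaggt
ANXA9 promoter: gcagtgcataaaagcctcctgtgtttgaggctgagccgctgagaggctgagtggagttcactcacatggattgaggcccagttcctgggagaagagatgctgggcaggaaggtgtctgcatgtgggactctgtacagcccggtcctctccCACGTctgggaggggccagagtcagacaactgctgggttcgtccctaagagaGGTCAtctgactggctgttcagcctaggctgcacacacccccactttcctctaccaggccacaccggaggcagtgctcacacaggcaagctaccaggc
The motifs searched on both strands were TATAAA for the TATA box, CCAAT for the box of that name, GGGCGG for the GC box, ACGTG for the core of the hypoxia response element, AGAACA for the glucocorticoid receptor and GGTCA for the estrogen receptor. A match on the minus strand stands in the line as its reverse complement. The ANXA1 window held TATAAA 31 bases before the start site, and CCAAT at -77 on the plus strand and at -160 on the minus strand. The ANXA9 window held ACGTG at -100 on the minus strand and GGTCA at -48. No 2 of these matches overlapped. Over 35116 promoter windows of this length, TATAAA occurred in 11.5%, CCAAT in 34.6%, GGGCGG in 45%, ACGTG in 21.4%, AGAACA in 14.8% and GGTCA in 37.4%. GC content was 37.7% in the ANXA1 window and 59.0% in the ANXA9 window, where the median of all windows was 58.7%. RefSeq held 14 windows for the 10 annexin genes, of which 4 contained TATAAA (in ANXA1, ANXA2, ANXA10 and ANXA11), 3 ACGTG (in ANXA4, ANXA6 and ANXA9) and 2 AGAACA (both in ANXA11). GGTCA stood in 8 windows (of ANXA4, ANXA6, ANXA7, ANXA9 and ANXA11), GGGCGG in 7 (of ANXA2, ANXA4, ANXA5, ANXA6, ANXA7 and ANXA11) and CCAAT in 4 (of ANXA1, ANXA6, ANXA7 and ANXA11). A match is a run of letters and no evidence of binding, and the share of windows with each motif shows how common such runs are.

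ANXA1, the calcium-dependent annexin that glucocorticoids induce, was lower at day 2 than at day 0 in both lines. It read 6.56 and 6.81 in EglN2 shRNA cells at day 2, against 8.11 and 7.80 in the same cells at day 0. In Scr cells it read 6.72 and 6.95 at day 2, against 7.13 and 7.73 at day 0. All 4 day 2 arrays (6.56 to 6.95) lay below all 4 day 0 arrays (7.13 to 8.11), and the Scr day 0 arrays differed from each other by 0.60. Averaged over both lines, ANXA1 fell at day 2 by 0.93 on the log2 scale (SE 0.14, 95% confidence interval -1.25 to -0.62). Its level at day 2 was 52.4% of that at day 0, or 1.91-fold lower. This was past the threshold of 0.05 (limma, Benjamini-Hochberg over all 21214 probe sets, adjusted p = 0.0486). The call was lost when any of the 8 arrays was left out, with differences between -1.08 and -0.78 and adjusted p between 0.0886 and 0.231. It was also lost when the 33297 probe sets of the whole table were tested (adjusted p = 0.283) and after median centring (0.0603) or quantile normalization (0.07).

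Within the lines, the ANXA1 difference between day 2 and day 0 was -1.27 in EglN2 shRNA cells (SE 0.20, interval -1.71 to -0.83, adjusted p = 0.134 with limma). In Scr cells it was -0.60 (SE 0.20, interval -1.04 to -0.15, adjusted p = 0.315). These correspond to levels of 41.5% and 66.2% of day 0, and neither was past the threshold. The change in EglN2 shRNA cells minus that in Scr cells was -0.67 (SE 0.28, interval -1.30 to -0.05), with an unadjusted p of 0.0372 and an adjusted p of 0.688, which did not pass. EglN2 shRNA minus Scr was -0.15 at day 2 (SE 0.20, adjusted p = 0.995) and 0.52 at day 0 (SE 0.20, adjusted p = 0.455). From low to high, the group means were 6.68 in EglN2 shRNA day 2, 6.84 in Scr day 2, 7.43 in Scr day 0 and 7.96 in EglN2 shRNA day 0. The arrays of the 2 day 2 groups overlapped, and those of the 2 day 0 groups did not. These values moved when 1 array was left out. The Scr difference then lay between -0.90 and -0.29, that between the lines in the change between -0.98 and -0.37, and EglN2 shRNA minus Scr at day 0 between 0.22 and 0.83, whereas the difference in EglN2 shRNA cells lay between -1.43 and -1.12.

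ANXA9, an annexin whose calcium sites are atypical and which is expressed in epithelia, showed the opposite direction. It read 11.68 and 11.13 in EglN2 shRNA cells at day 2, against 10.78 and 10.91 at day 0. Scr cells gave 11.32 and 11.11 at day 2, against 10.75 and 10.76 at day 0. Every day 2 array (11.11 to 11.68) lay above every day 0 array (10.75 to 10.91). The difference over both lines was 0.51 (SE 0.12, interval 0.24 to 0.78), a 1.42-fold higher level at day 2, with an unadjusted p of 0.00172 and an adjusted p of 0.173. It was 0.56 in EglN2 shRNA cells (SE 0.17, adjusted p = 0.588) and 0.46 in Scr cells (SE 0.17, adjusted p = 0.333), and the 2 differed by 0.10 (SE 0.24, interval -0.43 to 0.63). ANXA9 was thus higher in both lines by values that did not pass the test. Between the lines, its difference was 0.19 at day 2 and 0.09 at day 0 (EglN2 shRNA minus Scr, SE 0.17 each).

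**Figure D1:**
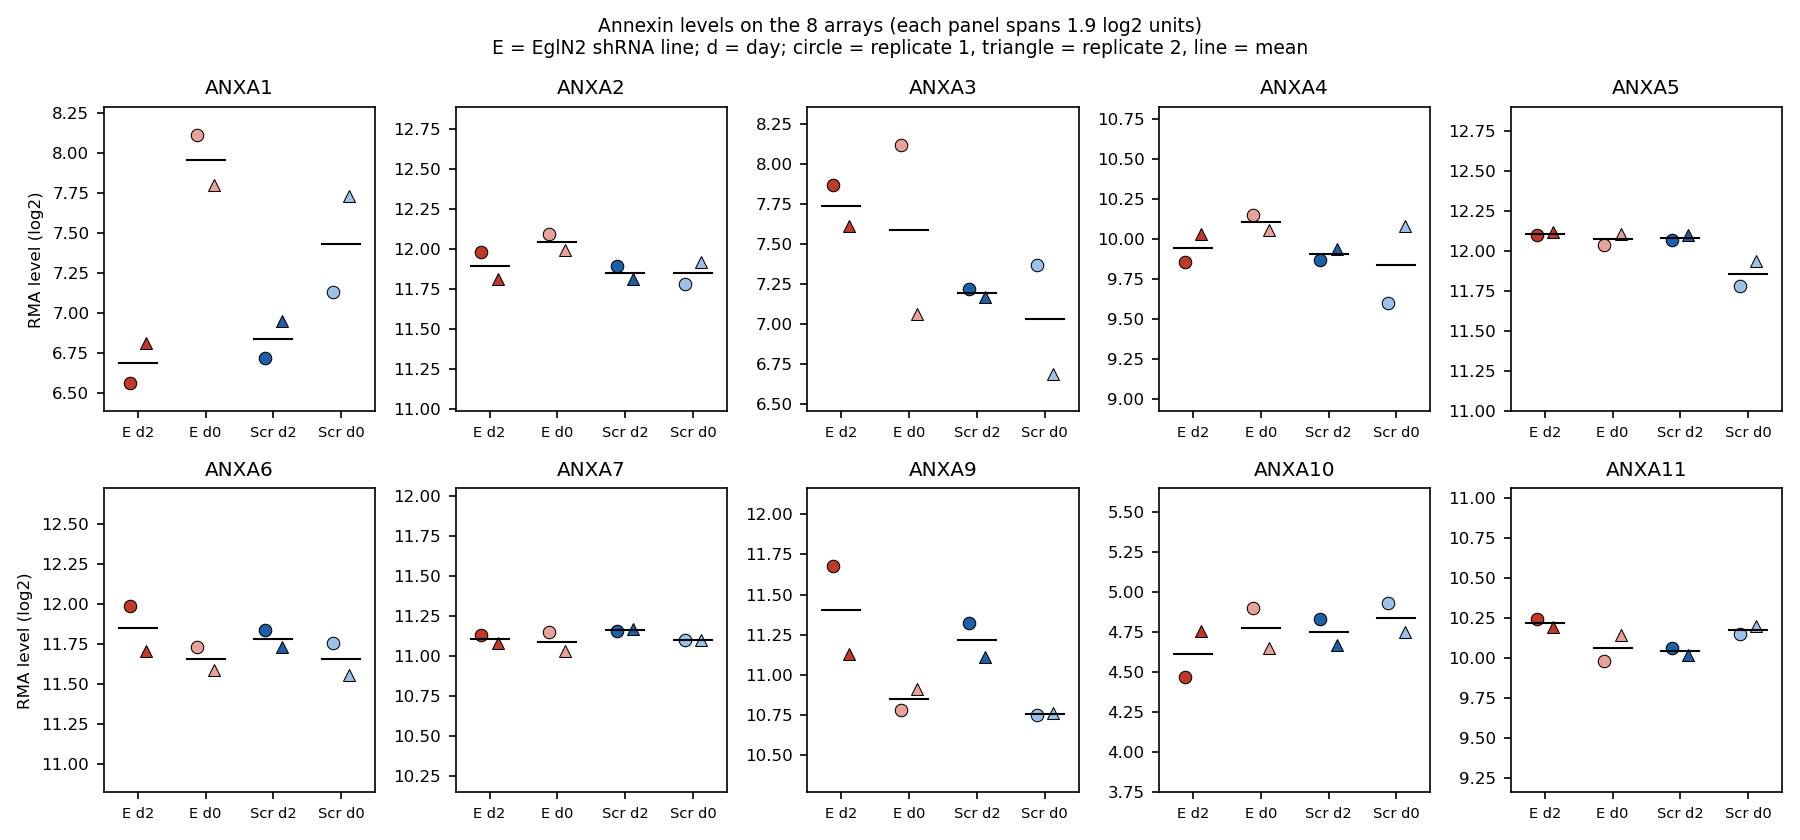
RMA level (log2) of each annexin on the 8 arrays, by group, with circles for replicate 1, triangles for replicate 2 and lines for group means. Every panel spans the same number of log2 units; ANXA1 lies at 6.56 to 6.95 on the day 2 arrays and 7.13 to 8.11 on the day 0 arrays, and ANXA9 at 11.11 to 11.68 and 10.75 to 10.91.

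The genes beside ANXA1 and ANXA9 on their chromosomes gave smaller differences. Over both lines, day 2 minus day 0 was -0.02 for ALDH1A1 and -0.01 for RORB, the neighbours of ANXA1 on chromosome 9. It was 0.16 (adjusted p = 0.45) for CERS2 and 0.01 for MINDY1, the neighbours of ANXA9 on chromosome 1. Over all 10 members the arrays of day 2 and day 0, both lines together, did not overlap for 1 member in each direction, ANXA9 above and ANXA1 below. Among all probe sets this held for 2.98% above and 2.11% below. The 1 member past the adjusted threshold in this comparison stands beside 0.141% of all probe sets (30 of 21214). The median difference was 0.02 over the 10 members and -0.005 over all probe sets.

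ANXA3, a calcium-dependent annexin first found as an inositol phosphate phosphohydrolase, was the most variable member between arrays of 1 group. It read 7.87 and 7.61 in EglN2 shRNA cells at day 2 and 8.12 and 7.06 at day 0, against 7.22 and 7.17 in Scr cells at day 2 and 7.37 and 6.69 at day 0. Replicate 1 was the higher array in all 4 groups, by 0.26 in EglN2 shRNA cells at day 2 and 1.06 at day 0, and by 0.05 in Scr cells at day 2 and 0.68 at day 0. Its residual SD was 0.45, and 0.542% of probe sets had a larger one. EglN2 shRNA minus Scr was 0.54 at day 2 and 0.56 at day 0 (SE 0.31 each). Averaged over both days it was 0.55 (SE 0.22, interval 0.06 to 1.04), with an unadjusted p of 0.0312 and an adjusted p of 0.612. Leaving out 1 array gave 0.42 to 0.68 at day 2, 0.03 to 1.09 at day 0 and 0.29 to 0.82 over both days. The lines overlapped, since an EglN2 shRNA day 0 array (7.06) lay below 3 of the 4 Scr arrays. ACTA2, the smooth muscle actin gene used as a basal marker, also read lower on the second array of every group. At day 0 it read 11.05 against 13.33 on the first array in EglN2 shRNA cells, and 10.8 against 12.81 in Scr cells. At day 2 these values were 12.43 against 13.21 and 12.05 against 12.72. Of the other basal markers, MYH11 also read lower on the second array of every group (6.41 against 6.75 in Scr cells at day 0). KRT14 read lower on it in every group but Scr day 0 (8.49 against 8.34). KRT5 read lower on it in every group but Scr day 2 (6.92 against 6.83). CNN1 read higher on it in every group but EglN2 shRNA day 0 (6.85 against 7.29). The part of ACTA2 in the ANXA3 values was not tested.

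ANXA2, the partner of S100A10 and a binder of plasminogen, lay between 11.78 and 12.09 on the 8 arrays. It read 11.98 and 11.81 in EglN2 shRNA cells at day 2 and 12.09 and 11.99 at day 0, against 11.89 and 11.81 in Scr cells at day 2 and 11.78 and 11.92 at day 0. Day 2 minus day 0 was -0.14 in EglN2 shRNA cells (SE 0.11, interval -0.39 to 0.10) and 0.00 in Scr cells (SE 0.11, interval -0.25 to 0.25). The genome holds processed copies of ANXA2, and 3 other probe sets carry the names of ANXA2P1, ANXA2P2 and ANXA2P3. Over the 8 arrays the ANXA2P2 set read 11.95 to 12.34, about as high as ANXA2. The ANXA2P1 and ANXA2P3 sets read 8.36 to 8.76 and 6.91 to 7.26. The files do not tell how far the probes of these sets and of ANXA2 pick up the same transcript, so the ANXA2 level is uncertain in that respect. In EglN2 shRNA cells their differences were -0.16, -0.23 and 0.11, and in Scr cells 0.08 each, all with adjusted p above the threshold.

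ANXA4, an epithelial annexin that binds membranes of secretory vesicles, read 9.86 and 10.03 in EglN2 shRNA cells at day 2 and 10.15 and 10.06 at day 0, against 9.87 and 9.94 in Scr cells at day 2 and 9.60 and 10.08 at day 0. The first Scr day 0 array was the lowest of the 8. Day 2 minus day 0 was -0.16 in EglN2 shRNA cells and 0.07 in Scr cells (SE 0.15 each).
ANXA5, the phosphatidylserine binder, read 12.10 and 12.12 in EglN2 shRNA cells at day 2 and 12.04 and 12.11 at day 0, against 12.07 and 12.10 in Scr cells at day 2 and 11.78 and 11.94 at day 0. Both Scr day 0 arrays lay below the other 6. The difference between day 2 and day 0 was 0.04 in EglN2 shRNA cells (SE 0.10) and 0.23 in Scr cells (SE 0.10, interval -0.01 to 0.46, adjusted p = 0.399).
ANXA6, which carries a doubled annexin core and takes part in endosomal traffic and cholesterol handling, read 11.99 and 11.71 in EglN2 shRNA cells at day 2 and 11.73 and 11.59 at day 0, against 11.84 and 11.73 in Scr cells at day 2 and 11.76 and 11.56 at day 0. Replicate 1 was the higher array in every group. Day 2 minus day 0 was 0.19 in EglN2 shRNA cells and 0.13 in Scr cells (SE 0.13 each).

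ANXA7 and ANXA11 are the members with a long amino-terminal region, and ANXA11 binds the calcium sensor ALG-2 and RNA granules. ANXA7 had the narrowest spread of the 10, with 11.13 and 11.08 in EglN2 shRNA cells at day 2 and 11.15 and 11.03 at day 0, against 11.16 and 11.17 in Scr cells at day 2 and 11.10 and 11.10 at day 0. Its day 2 minus day 0 difference was 0.02 in EglN2 shRNA cells (interval -0.21 to 0.24) and 0.06 in Scr cells (interval -0.16 to 0.29).
ANXA11 read 10.24 and 10.19 in EglN2 shRNA cells at day 2 and 9.98 and 10.14 at day 0, against 10.06 and 10.02 in Scr cells at day 2 and 10.15 and 10.20 at day 0. Its groups did not overlap in either line, with day 2 above day 0 in EglN2 shRNA cells and below it in Scr cells. The differences were 0.15 and -0.13 (SE 0.10 each), and they differed by 0.29 (SE 0.15, interval -0.04 to 0.62, adjusted p = 0.702). ANXA10, a member whose calcium sites are largely lost and which is best known from stomach, read between 4.47 and 4.93 on the 8 arrays. The lowest 10th of probe sets by mean level ended at 5.08, so ANXA10 was among the dimmest, and without detection calls its differences of -0.16 in EglN2 shRNA cells and -0.09 in Scr cells (SE 0.14 each) cannot be told from background.

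**Figure D2:**
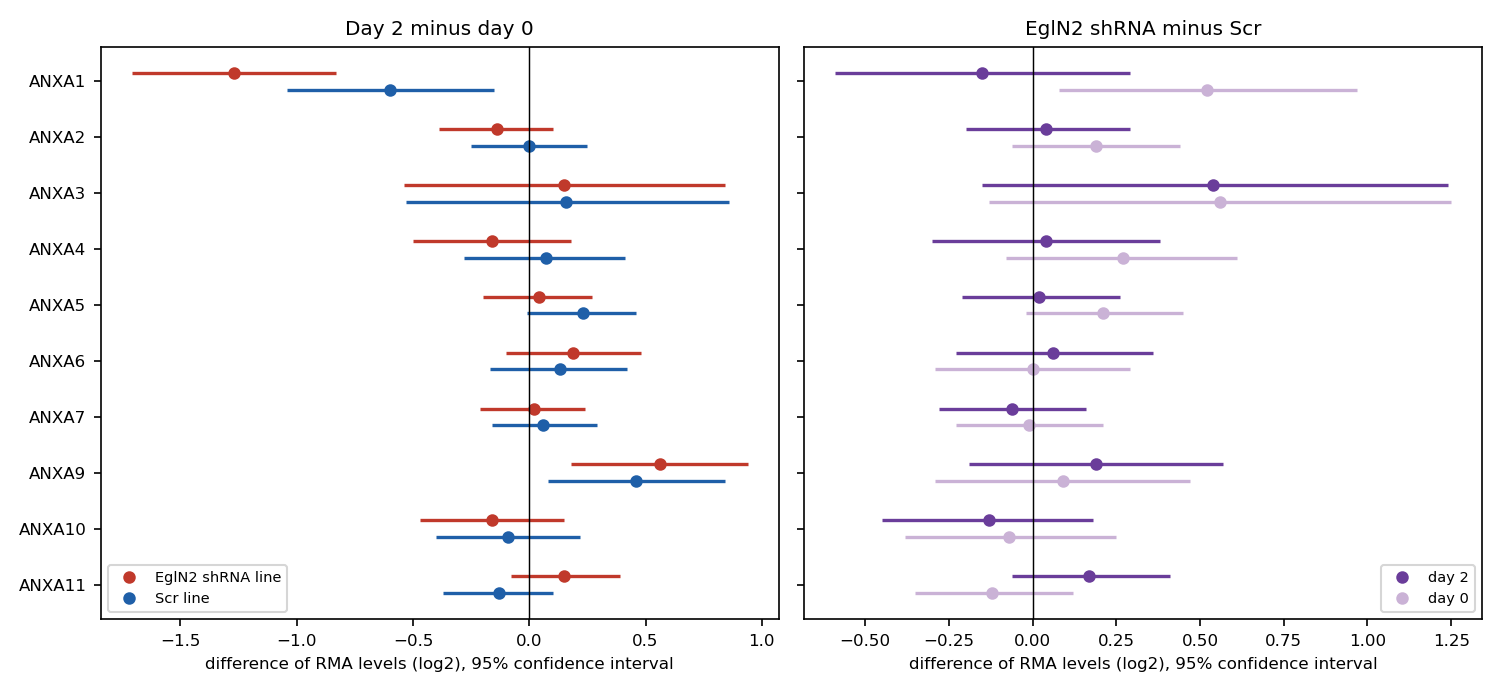
Differences of RMA levels (log2) with 95% confidence intervals for the 10 annexins, on the left day 2 minus day 0 in each line and on the right EglN2 shRNA minus Scr at each day. On the left, both intervals of ANXA1 lie below 0 (-1.71 to -0.83 and -1.04 to -0.15), both intervals of ANXA9 lie above it (0.18 to 0.94 and 0.08 to 0.84), and the other members' intervals include 0.

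The counts over the 10 members can be read beside those over all probe sets. In EglN2 shRNA cells, 0 of 10 members passed the adjusted threshold between day 2 and day 0 (limma, 0.00943% of all probe sets), while ANXA9 was higher and ANXA1 lower at an unadjusted p under 0.05, beside 2.73% and 3.04% of all probe sets. The 2 days did not overlap for 2 members above and 3 below in these cells, where 15.2% and 15.5% of all probe sets did so. In Scr cells, again 0 of 10 members passed (0% of all probe sets), with ANXA9 higher and ANXA1 lower at an unadjusted p under 0.05, beside 7.49% and 5.36% of all. The days did not overlap for 3 members above (ANXA5, ANXA7 and ANXA9) and 2 below (ANXA1 and ANXA11) in these cells, beside 23% and 24.8% of all. The difference between the lines in these changes passed for 0 members (0% of all probe sets) and had an unadjusted p under 0.05 for 0 members above and 1 below (ANXA1), beside 3.14% and 3.98%.

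Between the lines, EglN2 shRNA minus Scr passed for 0 of 10 members at day 2 (0.0754% of all probe sets), at day 0 (0%) and averaged over the days (0.033%). At an unadjusted p under 0.05, day 2 had 0 members higher and 0 lower (2.49% and 2.69% of all probe sets). Day 0 had 1 higher, ANXA1, and 0 lower (5.16% and 5.27%), and both days together had 1 higher, ANXA3, and 0 lower (4.5% and 3.57%). The lines did not overlap at day 2 for ANXA3 and ANXA11 above and ANXA7 below, beside 15.6% and 14.8% of all probe sets. At day 0 they did not overlap for ANXA1, ANXA2, ANXA5 and ANXA9 above and ANXA11 below, beside 22.2% and 22.9%. Over both days, 0 members were free of overlap in either direction, beside 2.04% and 1.47%. The median line difference over both days was 0.12 for the members and 0 for all probe sets, with 8 members positive and 2 negative. Of the positive ones, ANXA6 and ANXA11 (0.03 each) became -0.01 with quantile normalization, and their sign also depended on single arrays.

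The genes most like ANXA1 over the arrays were sought by the root mean square difference of the 8 values after each probe set was centred on its own mean. The nearest were CYP1B1 (0.251), DRC8 (0.255) and GBP2 (0.303). CYP1B1, a cytochrome P450 that the aryl hydrocarbon receptor induces, read 9.96 and 10.26 in EglN2 shRNA cells at day 2 and 11.14 and 10.86 at day 0, against 9.95 and 10.28 in Scr cells at day 2 and 11 and 10.92 at day 0. Its day 2 arrays (9.95 to 10.28) all lay below its day 0 arrays (10.86 to 11.14). CYP1B1 fell by 0.87 over both lines (SE 0.11, limma adjusted p = 0.0315), with -0.89 in EglN2 shRNA cells and -0.85 in Scr cells. Its call was lost, with every other in this comparison, when all 33297 probe sets were tested (adjusted p = 0.206). It was also lost when any of the 8 arrays was left out, with differences between -0.95 and -0.79 and adjusted p between 0.0541 and 0.164. DRC8, a component of the dynein regulatory complex of cilia, differed by -0.58 (adjusted p = 0.0761), and GBP2, an interferon-induced GTPase, by -0.44 (adjusted p = 0.17). These 3 genes were picked for their likeness to ANXA1, so that their direction is fixed by the choice.

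**Figure D3:**
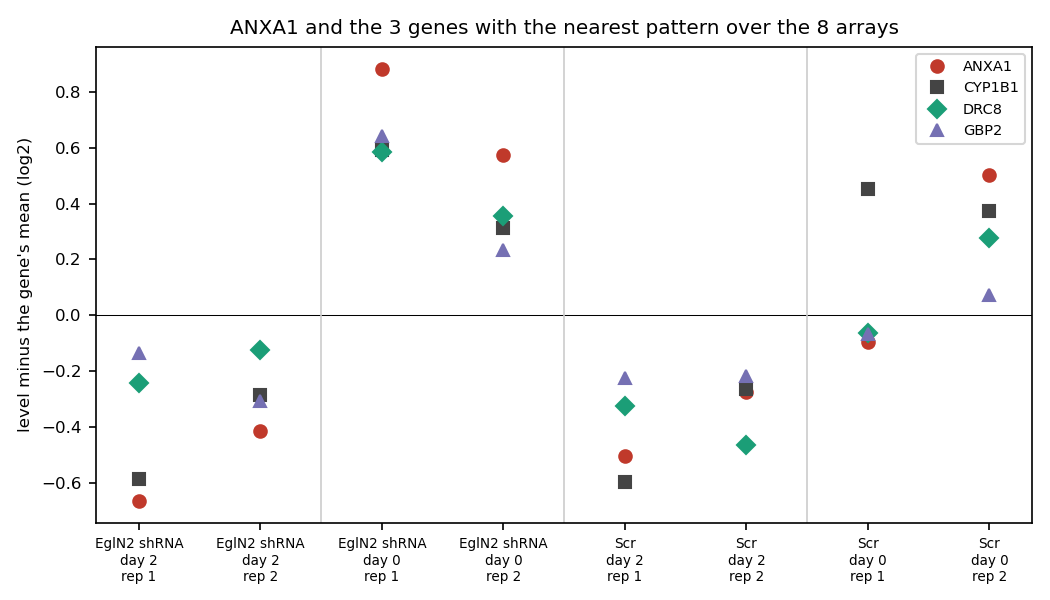
RMA level minus the gene's own mean (log2) on each of the 8 arrays for ANXA1 and the 3 genes with the smallest root mean square difference from it. All 4 genes lie below 0 on the 4 day 2 arrays; on the first Scr day 0 array ANXA1 read 7.13, near its mean, whereas CYP1B1 read 11.

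Genes of processes linked to annexins were followed in 8 lists drawn up from known roles, with 4 further lists of cell type markers. The lists were chosen with earlier results of these data known, so counts over them are no independent evidence. In the comparison of day 2 with day 0 over both lines, 0 genes of any list passed the adjusted threshold. The list of S100 proteins, small calcium sensors of which several bind annexins, had 14 of 14 genes measured. Of these, 4 were lower and 0 higher at an unadjusted p under 0.05, beside 4.27% and 6.47% of all probe sets, and the list's median was -0.07, against -0.005 over all probe sets. S100A6, a partner of several annexins, read 9.41 and 9.35 in EglN2 shRNA cells at day 2 and 9.65 and 9.85 at day 0, against 9.39 and 9.43 in Scr cells at day 2 and 9.77 and 9.99 at day 0. Its 4 day 2 arrays lay below its 4 day 0 arrays, with a difference of -0.42 (SE 0.08, adjusted p = 0.108). S100A4 differed by -0.31 (adjusted p = 0.295) and S100A7 by -0.35 (adjusted p = 0.368). By line, 1 gene was lower at an unadjusted p under 0.05 in EglN2 shRNA cells, with a list median of 0.02, and 5 were lower in Scr cells, with a median of -0.20, beside 3.04% and 5.36% of all probe sets. S100A6 differed by -0.37 in EglN2 shRNA cells and -0.47 in Scr cells, S100A4 by -0.15 and -0.46, and S100A7 by -0.15 and -0.56. The lines' changes in these 3 genes differed by 0.10, 0.31 and 0.41 (SE 0.17, 0.19 and 0.24, adjusted p = 0.891, 0.72 and 0.72 with limma), none past the threshold. S100A10, added to these for its pairing with ANXA2 and not for its p, read 13.75 and 13.75 in EglN2 shRNA cells at day 2 and 13.79 and 13.69 at day 0, against 13.74 and 13.72 in Scr cells at day 2 and 13.53 and 13.69 at day 0. The first Scr day 0 array was the lowest of these.

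Among genes of plasminogen activation (8 of 10 measured), 1 was lower and 0 higher over both lines at an unadjusted p under 0.05. These counts stand beside 4.27% and 6.47% of all probe sets. The lower gene was PLAUR, the urokinase receptor, by -0.15 (adjusted p = 0.465). PLAUR read 6.80 and 6.78 in EglN2 shRNA cells at day 2 and 6.77 and 6.78 at day 0, against 6.82 and 6.75 in Scr cells at day 2 and 7.11 and 7.10 at day 0. Both Scr day 0 arrays lay above the other 6, so that the difference was 0.01 in EglN2 shRNA cells and -0.32 in Scr cells (SE 0.10 each). In the change in EglN2 shRNA cells minus that in Scr cells, 3 of the 8 genes were higher and 0 lower at an unadjusted p under 0.05, beside 3.14% and 3.98% of all probe sets. These were PLAUR (0.33), PLAT, the tissue plasminogen activator (0.36), and PLAU, urokinase (0.49), with adjusted p of 0.683, 0.68 and 0.695. PLAT differed between the days by 0.05 in EglN2 shRNA cells and -0.30 in Scr cells, and PLAU by 0.21 and -0.29.

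The list of formyl peptide receptors and phospholipase A2 had 11 of 12 genes measured. Between day 2 and day 0 over both lines, 1 was lower and 0 higher at an unadjusted p under 0.05. These counts stand beside 4.27% and 6.47% of all probe sets. The lower gene was PTGS1, a cyclooxygenase, by -0.19 (adjusted p = 0.43 with limma). PLA2G4A, the cytosolic phospholipase that releases arachidonic acid, had opposite values in the 2 lines. It read 6.84 and 6.90 in EglN2 shRNA cells at day 2 and 7.16 and 7.57 at day 0, against 7.34 and 7.19 in Scr cells at day 2 and 6.85 and 6.99 at day 0. Day 2 minus day 0 was -0.49 in EglN2 shRNA cells and 0.35 in Scr cells, and these differed by -0.84 (SE 0.20, unadjusted p = 0.00208, adjusted p = 0.652). In the same comparison of the lines' changes, the other companion lists had these genes at an unadjusted p under 0.05, none past the adjusted threshold. PLSCR1, a phospholipid scramblase, differed between the days by -0.25 in EglN2 shRNA cells and 0.56 in Scr cells. These 2 changes differed by -0.81 (SE 0.22, adjusted p = 0.658 with limma). RAB27A, a GTPase of secretory vesicles, changed by -0.22 in EglN2 shRNA cells and 0.46 in Scr cells, and these changes differed by -0.69 (SE 0.20, adjusted p = 0.671 with limma). For TIA1, an RNA-binding protein of stress granules, the changes were -0.15 in EglN2 shRNA cells and 0.38 in Scr cells. They differed by -0.53 (SE 0.15, adjusted p = 0.676 with limma). GCA is a calcium-binding relative of ALG-2 and SLC19A2 a thiamine transporter. Their changes in EglN2 shRNA cells minus those in Scr cells were -0.71 and -0.62 (adjusted p = 0.676 each with limma). For S100B this value was 0.38 (adjusted p = 0.684 with limma). By list, 1 of 14 phosphatidylserine genes, 1 of 14 exocytosis genes, 2 of 10 stress granule and ALG-2 genes and 1 of 11 glucocorticoid genes were lower. Of the S100 genes, 1 of 14 was higher, and the membrane repair list had 0 of 14 in either direction. Of all probe sets, 3.14% were higher and 3.98% lower at that level.

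Between day 2 and day 0 over both lines, 4.27% of all probe sets were lower and 6.47% higher at an unadjusted p under 0.05. Of the glucocorticoid receptor and the genes it induces (11 of 12 measured), 0 were at that level. The receptor NR3C1 itself differed by -0.17 (SE 0.08, adjusted p = 0.487). The median of that list was -0.05. Membrane repair and calpain genes (14 of 16 measured) had 1 lower gene at that level, OTOF, a ferlin, by -0.25 (adjusted p = 0.292). Genes of phosphatidylserine exposure and engulfment (14 of 16 measured) had 0, with a median of 0.06. In exocytosis and vesicle docking (14 of 14 measured), RAB27B, a small GTPase of secretory vesicles, read 9.60 and 9.61 in EglN2 shRNA cells at day 2 and 9.87 and 9.78 at day 0, against 9.23 and 9.02 in Scr cells at day 2 and 9.56 and 9.56 at day 0. It was lower at day 2 by -0.33 (SE 0.08, adjusted p = 0.173) and higher in EglN2 shRNA cells than in Scr cells by 0.37 (SE 0.08, adjusted p = 0.235). In the list of stress granule and ALG-2 pathway genes (10 of 10 measured), PATL1, an mRNA decapping factor, differed by 0.21 (adjusted p = 0.442). The median of the list was 0.09. The luminal marker ESR1 differed by -0.20 (SE 0.08, adjusted p = 0.432), the one gene of the 4 marker lists with an unadjusted p under 0.05 here.

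**Figure D4:**
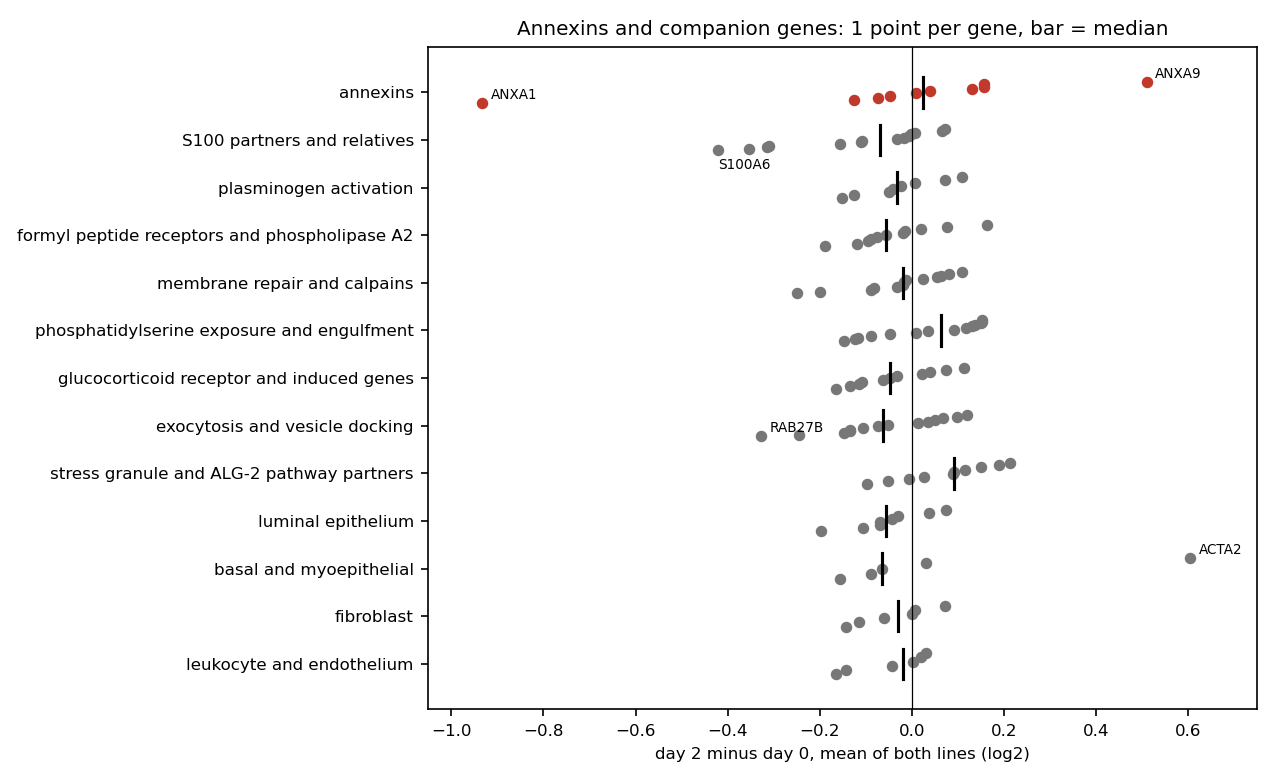
Day 2 minus day 0, mean of both lines (log2), for the annexins in red and each companion or marker list in grey, 1 point per gene, with black bars at the medians. ANXA1 (-0.93) and ANXA9 (0.51) lie at the ends of the annexin row, S100A6 (-0.42) and RAB27B (-0.33) are the lowest of their lists, and ACTA2 (0.61) has a standard error of 0.52.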

How the data were processed

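The 8 T47D samples were hybridised to Human Gene 1.0 ST arrays of Affymetrix. Per the submitters' processing notes, the authors used Affymetrix Expression Console and RMA, and they deposited log2 levels for each probe set. Which versions they ran is not stated in the labels. RMA draws dim genes together, and the scanner files were not analysed here. Every deposited column was mapped to a sample, so 0 were unused. Gene names came from the platform's probe table, which named 1 gene for 19460 of 33297 probe sets, several for 1754 and none for 12083. RefSeq updated 19429 of the single names by gene ID and left 31.

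Groups and replicate numbers came from the sample titles. A model of 4 group means was fitted with limma 3.58.1 under R 4.3.3 (lmFit, eBayes; 4 residual and 5.53 prior degrees of freedom) to the 21214 named probe sets of the 8 arrays. The 7 contrasts were two-sided and adjusted by Benjamini-Hochberg, with a threshold of 0.05. An exact permutation p is at least 0.333 between 2 groups of 2 arrays, and at least 0.0556 where 4 arrays are set against 4 within lines or days, and no such test was made. The median standard error was 0.12 between 2 groups; precision is limited by how few arrays there are. The code was tested on simulated data.

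The members and gene lists were chosen with earlier results of these data known. All members were named, with EGLN2, up to 3 genes per companion list with the smallest unadjusted p in the comparison described, S100A10 outside this rule, and the 3 genes nearest to the annexin of widest group range. A gene had 1 probe set, that with the highest mean. Alternatives were all probe sets, probe sets at or above the median level, median centring, quantile normalization, an intensity-dependent prior, array weights, the replicate block, fits of only the groups compared, and leaving out each array.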

Additional observations from a re-analysis of the deposited data

Results flagged for a closer look

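ANXA11 was noted because its day 2 minus day 0 differences pointed opposite ways in the 2 lines. All 4 possible differences between a day 2 and a day 0 array were positive in EglN2 shRNA cells and negative in Scr cells. With 2 arrays per group they are not separate observations and only restate that the days did not overlap. Such absence of overlap held for 15.2% of all probe sets above in EglN2 shRNA cells and 24.8% below in Scr cells. The share with both was not counted. The difference between the lines in the day 2 minus day 0 change was 0.29 on the log2 scale (SE 0.15). It did not pass the test (limma, adjusted p = 0.702, unadjusted p = 0.0762). In this comparison limma passed 0 of 21214 probe sets, while at an unadjusted p under 0.05 there were 666 higher and 845 lower ones.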

How the results depend on the processing

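The count of members past the threshold in day 2 minus day 0 over both lines was 1 (ANXA1) as reported. It was 0 with all 33297 probe sets, with median centring, with quantile normalization and without any 1 of the 8 arrays (0 to 0). It was also 0 with only probe sets at or above the median level, a filter that left ANXA1 untested. It stayed at 1 with the intensity-dependent prior (ANXA1 adjusted p = 0.0288), array weights (0.0433) and the replicate block (0.0187). The other 6 comparisons had 0 members under every alternative run. In limma, counts over all probe sets moved more: for day 2 minus day 0 over both lines, 30 as reported became 0 with all probe sets, 75 with the level filter, 76 with the intensity-dependent prior and 150 with the replicate block, and leaving out 1 array gave 0 to 20. With the replicate block, 2 calls became 13 in EglN2 shRNA cells, 0 became 42 in Scr cells, 16 became 32 between the lines at day 2, and 7 became 18 between the lines over both days. With all probe sets each of these counts was 0. The level filter gave 4 in EglN2 shRNA cells, 7 in Scr cells, 34 between the lines at day 2 and 11 over both days, and the intensity-dependent prior 3, 6, 26 and 14, with 2 for the difference between the lines in the changes. Between the lines over both days, median centring gave 4 and quantile normalization 13. Fits of only the groups compared gave 0, and leaving out 1 array gave 0 to 2 in EglN2 shRNA cells, 0 to 15 between the lines at day 2 and 0 to 6 over both days. Same-numbered arrays deviated together with correlations of 0.0981 to 0.271. The labels give the numbers no shared batch, so they were not taken as pairs. ANXA3 was higher in EglN2 shRNA than in Scr on same-numbered arrays by 0.65 and 0.44 at day 2 and 0.75 and 0.37 at day 0, and with the replicate block its difference over both days was 0.55 (adjusted p = 0.286).

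Of 1069 alternatives to the 70 single-gene values, 973 kept direction and call, 11 lost the call of ANXA1 and 41 changed sign, all in values that had not passed; the cause was not tested. A further 12 came to 0.00, and 32 belong to the 2 values that were 0.00 as reported and have no direction to keep. These were ANXA2 between days in Scr cells (-0.07 to 0.07 without 1 array, -0.08 with quantile normalization) and ANXA6 between the lines at day 0 (-0.10 to 0.10, and -0.09). Quantile normalization gave -0.01 for ANXA7 between days in Scr cells and 0.04 for the difference between the lines in its day 2 minus day 0 change. The same setting gave -0.01 for ANXA9 between the lines at day 0 and -0.03 for ANXA11 between days over both lines. It also gave -0.01 each for ANXA6 and ANXA11 between the lines over both days. Median centring gave 0.01 for ANXA7 between the lines at day 0. Leaving out 1 array turned 22 values, with these ranges. For day 2 minus day 0 in EglN2 shRNA cells ANXA3 -0.38 to 0.68, ANXA7 -0.05 to 0.07. For day 2 minus day 0 in Scr cells ANXA3 -0.17 to 0.50, ANXA4 -0.18 to 0.31. For the difference between the lines in these changes ANXA10 -0.21 to 0.08, ANXA3 -0.55 to 0.51, ANXA4 -0.47 to 0.02, ANXA6 -0.07 to 0.21, ANXA7 -0.11 to 0.01, ANXA9 -0.17 to 0.38. For EglN2 shRNA minus Scr at day 2 ANXA10 -0.28 to 0.01, ANXA2 -0.04 to 0.13, ANXA4 -0.04 to 0.13, ANXA6 -0.07 to 0.21, ANXA9 -0.08 to 0.47. For EglN2 shRNA minus Scr at day 0 ANXA10 -0.19 to 0.06, ANXA7 -0.07 to 0.05. For day 2 minus day 0 over both lines ANXA11 -0.03 to 0.05, ANXA3 -0.11 to 0.42, ANXA4 -0.17 to 0.07. For EglN2 shRNA minus Scr over both days ANXA11 -0.01 to 0.07, ANXA6 -0.04 to 0.10. Signal over background cannot be judged without detection calls.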
